A study of Mus musculus with 4 samples.

Results

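The genes of the hypoxia-inducible factor (HIF) pathway were examined in the frontonasal prominence (FNP), from which the nose and snout form, of mouse embryos with and without the MommeD43 mutation of Smchd1. The set held 32 of the 33708 rows of the table analysed and was matched by gene symbol. It comprised 4 HIF factors, 5 genes that sense oxygen or mark HIF for destruction, and 23 genes known as HIF targets. The genes were selected on earlier results of these same values, namely the difference between the MommeD43 and wild-type columns. Their differences are therefore a description and were not tested.

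The FVB/NJ embryos were collected at E10.5, all at 29 somites. There were 2 wild-type embryos (WT, Smchd1+/+, 1 female and 1 male) and 2 male embryos homozygous for the MommeD43 allele (MD43, Smchd1MommeD43/MommeD43). MommeD43 is a chemically induced missense change, present in every cell of the embryo, in SMCHD1, which acts on chromatin to silence genes. The pieces of tissue were dissected along the border with the maxillary prominence and frozen, and poly(A) RNA was sequenced. WT replicate 2 and MD43 replicate 2 had the same mother, and each replicate 1 came from a different one. The sample labels give WT replicate 2 as male, while a supplementary column heading of the study gives it as female. In values merged over the 2 libraries, genotype, the sex balance of the groups and the mothers cannot be told apart.

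HIF is a pair of proteins, an alpha subunit that oxygen makes unstable and a constant partner called ARNT. In the presence of oxygen, prolyl hydroxylases (the EGLN enzymes) modify the alpha subunit, the VHL protein then binds it, and it is degraded. When oxygen falls the alpha subunit persists and switches on genes for glycolysis, blood vessel growth, removal of mitochondria and collagen processing. Because this control acts on the protein, the mRNA level of a HIF factor does not report the activity of the pathway. The embryo at this stage is naturally low in oxygen, and several HIF targets are active in it.

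All values are log2 RPKM, that is, reads per kilobase of transcript scaled to library size, on a log2 scale, with 1 value for each genotype that merges its 2 libraries. Values of single libraries were not used here, so there is no spread between embryos and no replicate check of any difference below. The difference is MD43 minus WT. The reads behind a value, recovered from the table, are the geometric mean of the 2 libraries, and the MD43 libraries were 1.39 times deeper (an implied 22328791 reads a library against 16055882). Equal reads therefore mean a lower level in MD43. The error given is the smallest standard error that the counting of reads allows, and differences between embryos are not part of it. In bulk tissue, fewer cells that express a gene and less RNA in each cell cannot be told apart.

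The FNP markers fixed for this tissue were present. All 11 facial mesenchyme markers had reads, with a median difference of -0.11. Smchd1 itself was listed at 3.30 in MD43 and 3.31 in WT, which does not check the labels, since a missense allele is still transcribed. The difference over all 15377 genes that reached 10 reads in WT or MD43 (the genes used below) had a median of 0.0057, and its 5th and 95th percentiles were -0.68 and 0.52.

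Nearly all targets were lower in MD43, whereas the factors and sensors were divided. Of the 23 targets, 22 had a negative difference and 19 were at least 1.5-fold lower, with a median difference of -0.84 (55.8% of the WT level). A negative difference was found for 48.8% of all genes used. Of the 9 factors and sensors, 6 had a negative and 3 a positive difference, 1 was at least 1.5-fold lower, and their median was -0.22. The gap between the 2 medians was -0.62. Of all genes used, 6.43% were lower in MD43 by 1.5-fold or more and 4.24% were higher, whereas 20 of the 32 pathway genes were lower by this fold and 0 were higher. At 2-fold, 6 were lower (background 2.47%) and 0 higher (background 1.64%). All 32 genes passed the minimum of 10 reads. The summed RPKM was 305 in MD43 and 584 in WT over the targets, and 146 and 158 over the factors and sensors.

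**Figure D1:**
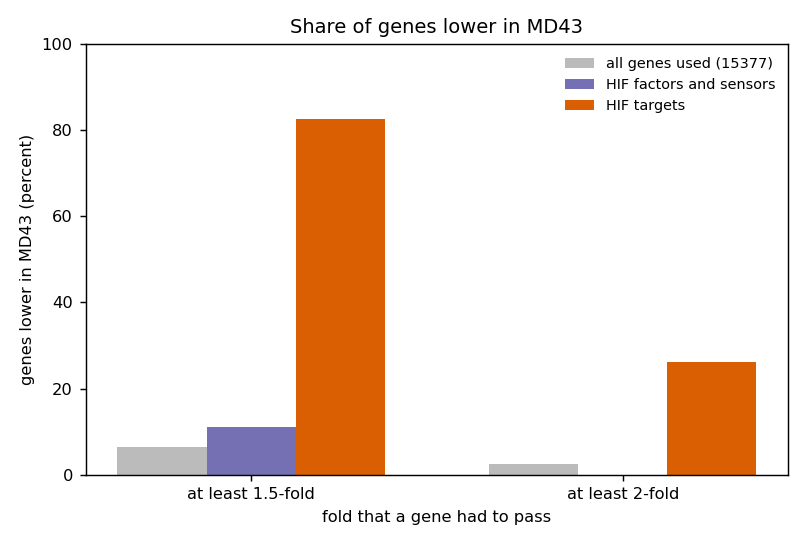
Bars give the percentage of genes lower in MD43 than in WT by at least 1.5 or 2-fold, for the 15377 genes used, the 9 HIF factors and sensors and the 23 targets. At 1.5-fold, 19 of 23 targets and 1 of 9 factors and sensors passed, against 6.43% of all genes.

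Of the 5244 genes that reached 1000 reads in WT or MD43, a limit chosen after the values were seen, 0.553% were lower by 1.5-fold or more and 0.515% were higher. Of the 18 pathway genes at this depth 12 were lower by this fold and 0 higher, and of these 12 Loxl2 reached 1000 reads in WT alone. The set was chosen on these same values, so the counts are a description.

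**Figure D2:**
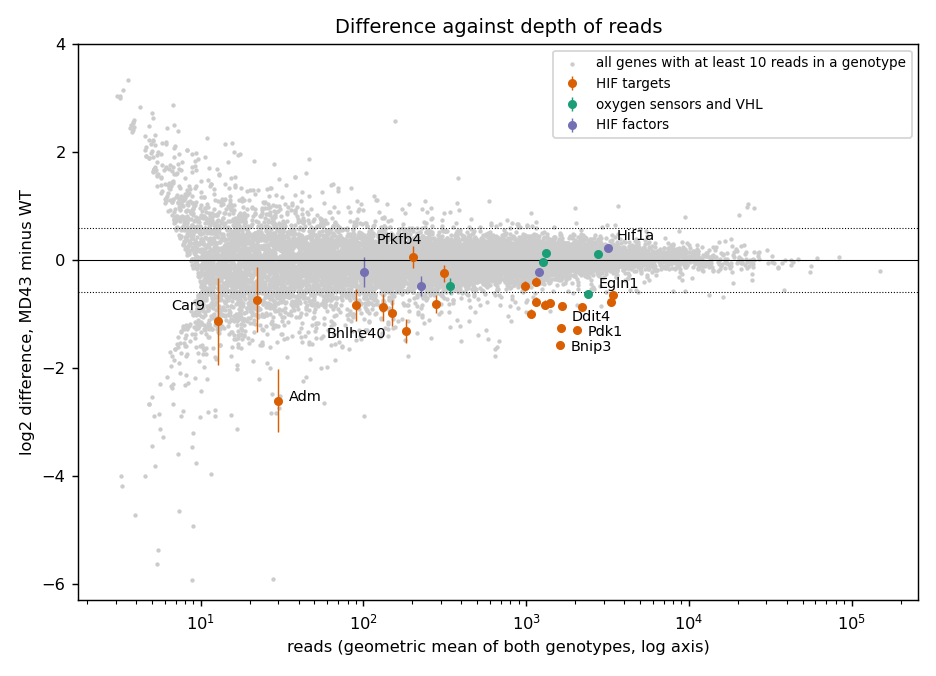
The log2 difference, MD43 minus WT, is plotted against the geometric mean of the reads of both genotypes on a log axis, with grey points for all genes used, coloured points for the pathway and bars of 1.96 times the smallest counting error. Dotted lines mark 1.5-fold, and Bnip3, Pdk1 and Ddit4 lie below the cloud at over 1000 reads while Hif1a lies above 0.

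HIF binds DNA at the letters ACGTG or GCGTG, and the sequence upstream of several genes on which the results turn is shown. RefSeq promoters (GRCm38.p6, 250 bases before to 50 after the start) were matched by symbol for 26 of the 32 genes. The letters were searched on both strands, where they read CACGT or CACGC on the other strand, and matches may overlap, as in CACGTG. A match was present for 17 of 18 targets and 6 of 8 factors and sensors. It was also present for 66.6% of the 10972 genes used here that had a promoter, and in 43.8% of all 32851 promoters. A match is a description and not a binding site. The stretches below are 80 bases long, end between 1 and 108 bases before the RefSeq start, and run 5′ to 3′ on the strand of the gene, with matches in capitals. They are from 4 of the 6 targets at least 2-fold lower in MD43 and from Egln1, the sensor that passed 1.5-fold. Hif1an, a sensor that was not lower, was added as a gene without a match. Of the other lowered targets, Bhlhe40 had no promoter here. Car9 had 1 match, which was not upstream of its annotated starts, and was left out. Each stretch was placed where it held the most matches. The stretches therefore do not compare lowered genes with others.
Adm, chr7:110627567-110627646, plus strand: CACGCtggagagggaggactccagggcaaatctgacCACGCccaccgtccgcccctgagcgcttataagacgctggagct
Bnip3, chr7:138909535-138909614, minus strand: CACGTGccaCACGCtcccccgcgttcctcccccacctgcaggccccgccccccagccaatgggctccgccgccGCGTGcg
Pdk1, chr2:71873144-71873223, plus strand: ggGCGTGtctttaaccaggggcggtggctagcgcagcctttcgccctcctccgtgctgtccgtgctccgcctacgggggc
Ddit4, chr10:59951878-59951957, minus strand: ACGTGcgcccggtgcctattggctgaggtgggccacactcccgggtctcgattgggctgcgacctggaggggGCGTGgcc
Egln1, chr8:124949325-124949404, minus strand: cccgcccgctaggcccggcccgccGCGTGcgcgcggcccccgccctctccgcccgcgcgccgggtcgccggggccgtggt
Hif1an, chr19:44562770-44562849, plus strand: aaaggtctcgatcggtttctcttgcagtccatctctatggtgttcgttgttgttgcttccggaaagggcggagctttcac

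The Bnip3 promoter held 5 matches in all, of which 4 lie in the stretch shown, and that of Adm held 2. The promoters of Fam162a and Egln2 held the most, 6 each, and these genes differed in the table, as Fam162a was lower in MD43 and Egln2 was not. Car12, Hif1an and Vhl had no match in this window.

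The factors came first in the comparison. Hif1a (GRCm38 chromosome 12, 73901375 to 73947530, plus strand), the widely expressed alpha subunit, was listed at 4.71 in WT, from 2478 reads, and at 4.94 in MD43, from 4043 reads. Its difference was 0.23 ± 0.03 (counting SE), so it was slightly higher in MD43. An antisense gene, Gm15283, overlaps it on the opposite strand and had 308 reads in MD43 and 199 in WT (0.16). The other factors were slightly lower. Arnt (chromosome 3, 95434388 to 95497240, plus strand), the common partner, was at 2.88 in MD43 and 3.10 in WT, a difference of -0.22 ± 0.04. Epas1, which encodes the alpha subunit HIF-2 alpha and is prominent in blood vessels, had 91.9 reads in WT, 110 in MD43 and a difference of -0.22 ± 0.14, within 1.96 times its counting error. Hif3a, a related alpha subunit with forms that restrain the pathway, had 224 and 225 reads and a difference of -0.48 ± 0.10. None of the 4 factors passed 1.5-fold. Over the 4, the summed RPKM was 40.4 in MD43 and 37.9 in WT, most of it Hif1a.

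The sensors were split. Egln1 (chromosome 8, 124908587 to 124949324, minus strand), the main HIF prolyl hydroxylase, was listed at 4.83 in MD43 and 5.45 in WT, with 2275 and 2519 reads. Its difference of -0.62 ± 0.03 lay just past 1.5-fold. Egln3, a second prolyl hydroxylase, had 341 reads in MD43 and 343 in the shallower WT libraries, a difference of -0.48 ± 0.08. Egln1 and Egln3 are themselves HIF targets. Egln2, the third prolyl hydroxylase, was at 4.71 in MD43 and 4.58 in WT, a difference of 0.13 ± 0.04. Hif1an, which hydroxylates an asparagine of the alpha subunit and limits its activity, was at 4.53 and 4.42 (0.11 ± 0.03). Vhl, the receptor that sends HIF to degradation, was at 4.46 and 4.50 (-0.04 ± 0.04), a difference within 1.96 times its counting error. With Egln1 and Egln3 counted as targets, the median of the remaining factors and sensors was -0.041 and that of the enlarged target group -0.83.

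**Figure D3:**
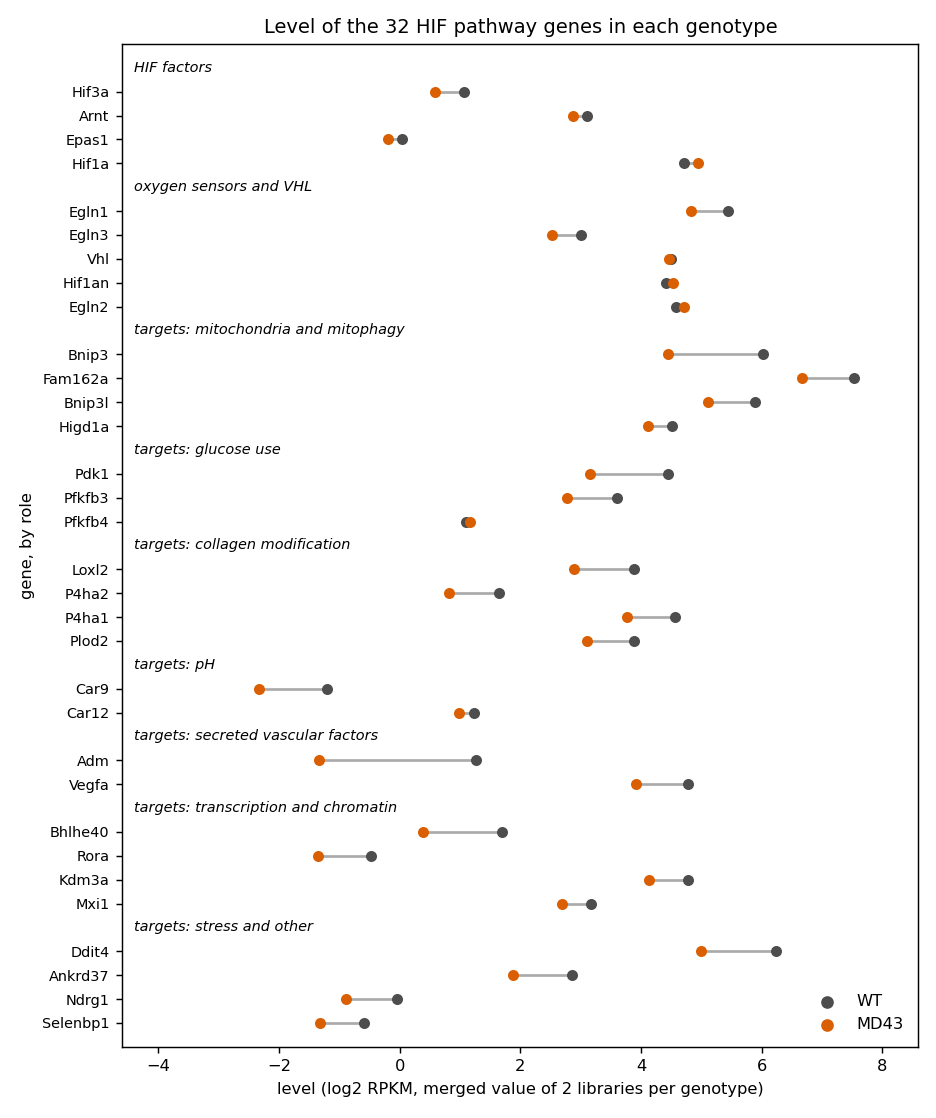
Each row is 1 of the 32 genes, grouped by role, with its level in log2 RPKM in WT (grey) and MD43 (orange), each point being the merged value of 2 libraries. The MD43 point lies to the left of the WT point for 22 of 23 targets, while the points of Vhl, Hif1an, Egln2 and Hif1a are close together or in the reverse order.

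The secreted factors included the largest difference of the set in the values as deposited. Adm (chromosome 7, 110627661 to 110629820, plus strand), which encodes adrenomedullin, a peptide that acts on vessels, was at -1.34 in MD43 and 1.27 in WT. The difference was -2.60 ± 0.30 (6.08-fold lower), the 38th lowest of the 15377 genes. With a pseudocount of 1 RPKM it was -1.29, behind Bnip3 at -1.54. It rested on 14.3 reads in MD43 and 62.5 in WT. The reads of the 2 libraries multiplied to 204 in MD43 and 3904 in WT. The most even whole numbers with these products are 12 and 17 in MD43 and 61 and 64 in WT, but 6 and 7 pairs are possible and the true ones are not known. Vegfa (chromosome 17, 46016993 to 46032369, minus strand), the main growth factor for vessels, was at 3.92 and 4.78, from 1452 and 1891 reads, and 1.81-fold lower (-0.86 ± 0.04).

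The 12 genes listed as markers of the endothelium had smaller differences than these vessel factors. Of these 12 markers, 9 had a negative and 3 a positive difference and 0 passed 1.5-fold. Their median was -0.11 and their summed RPKM 27.7 in MD43 and 30.9 in WT. Beyond counting error, 3 were lower and 0 higher. Flt1, an endothelial receptor gene, was counted with the other genes known to respond to hypoxia, described below. It was 1.87-fold lower (-0.90 ± 0.14), from 97.1 reads in MD43 and 131 in WT. That 0 markers passed 1.5-fold therefore depends on where Flt1 was listed.

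Among the mitochondrial targets, Bnip3 (chromosome 7, 138890836 to 138909519, minus strand), a receptor for the removal of mitochondria, had the second largest difference of the set in the values as deposited, and the largest with a pseudocount of 1 RPKM. It was at 4.45 in MD43 and 6.03 in WT, with 1105 and 2377 reads, a difference of -1.58 ± 0.04 (2.99-fold lower). An antisense gene, Gm45507, overlaps Bnip3 on the opposite strand and had 429 reads in MD43 and 970 in WT (-1.65). The library kit keeps the strand, but whether it was used in the counting is not given in the sources used here, so reads of this pair can be shared. Bnip3l, the related receptor that also clears mitochondria from maturing red blood cells, was at 5.11 and 5.89, from 2975 and 3679 reads (-0.78 ± 0.03). Fam162a, a mitochondrial protein with a role in cell death, was the most highly expressed gene of the set in both genotypes, at 6.67 in MD43 and 7.54 in WT (-0.87 ± 0.03). It overlaps Wdr5b on the opposite strand, which had 345 and 367 reads (-0.57). Higd1a, which associates with the respiratory chain, was at 4.11 and 4.51 (-0.40 ± 0.04) and did not pass 1.5-fold.

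Of the 3 regulators of glucose use, Pdk1 (chromosome 2, 71873224 to 71903858, plus strand), a kinase that keeps pyruvate out of mitochondria, was 2.47-fold lower. It was at 3.15 in MD43 and 4.45 in WT, with 1543 and 2735 reads (-1.30 ± 0.03). Pfkfb3 and Pfkfb4 make the molecule that speeds up phosphofructokinase, and they differed from each other. Pfkfb3 was at 2.78 and 3.61 (-0.83 ± 0.04), while Pfkfb4 was at 1.16 and 1.10 (0.05 ± 0.10), the one target without a negative difference and within its counting error.

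The 4 enzymes of collagen modification were all lower. Loxl2, which cross-links collagen, was at 2.88 in MD43 and 3.88 in WT (-0.99 ± 0.04). P4ha1 and P4ha2, the catalytic subunits of collagen prolyl hydroxylase, were lower by -0.80 ± 0.04 and -0.82 ± 0.09. Plod2, which hydroxylates collagen lysines, was at 3.10 and 3.88 (-0.78 ± 0.04). The summed RPKM of the 4 was 31.4 in MD43 and 56.3 in WT.

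The carbonic anhydrases that act at the cell surface were scarce in this tissue. Car9 had the lowest WT level of the set, at -2.33 in MD43 and -1.20 in WT, with 10.2 and 16.1 reads, and its difference of -1.14 ± 0.41 is imprecise. Car12 was at 0.99 and 1.24 (-0.25 ± 0.08) and did not pass 1.5-fold.

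The targets that act on transcription or chromatin were lower in each case. Bhlhe40 (chromosome 6, 108660629 to 108666925, plus strand), a repressor also known from the circadian clock, was at 0.38 in MD43 and 1.69 in WT, with 137 and 245 reads, 2.49-fold lower (-1.32 ± 0.11). Rora, a nuclear receptor, was at -1.36 and -0.48 (-0.88 ± 0.13). Kdm3a, a demethylase of histone H3 lysine 9, was at 4.14 and 4.78 from 3230 and 3623 reads (-0.64 ± 0.02). Mxi1, an antagonist of MYC, was at 2.68 and 3.17, and its difference of -0.48 ± 0.05 lay just short of 1.5-fold.

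Among the remaining targets, Ddit4 (chromosome 10, 59949669 to 59951834, minus strand), an inhibitor of the growth regulator mTORC1, was 2.39-fold lower. It was at 4.99 in MD43 and 6.25 in WT, with 1244 and 2139 reads (-1.26 ± 0.04). Ankrd37, a protein with ankyrin repeats, was at 1.87 and 2.85 (-0.98 ± 0.12), and it overlaps Ufsp2 on the opposite strand, which had 734 and 610 reads (-0.21), and Lrp2bp on the same strand as Ufsp2, which had 27.2 and 31.5 reads (-0.69). Ndrg1, a gene of stress and differentiation, was at -0.89 and -0.05 (-0.84 ± 0.15). Selenbp1, a selenium-binding oxidase, rested on 20.2 and 24.2 reads (-0.74 ± 0.31).

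Adm and Bnip3 stood at the low end of the targets and Pfkfb4 at the other. Ordered by difference, 18 of the 22 pairs of neighbours did not differ beyond 1.96 times the counting error of their gap. The gaps that did were those between Adm and Bnip3, Bnip3 and Bhlhe40, Kdm3a and Mxi1, and Car12 and Pfkfb4. Sorting places the closest values side by side, so small gaps between neighbours are built into this count. With a pseudocount of 1 RPKM, Adm (-1.29) and Bnip3 (-1.54) changed places. Of the 23 targets, 12 lay between -1 and -0.73. The order of levels within the set also shifted. Bnip3 was the 3rd highest of the 32 genes in WT and the 9th in MD43, while Hif1a was the 8th in WT and the 4th in MD43.

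Further genes of the pathway, from lists outside the set, were read in the same way. The background for them is all genes used, of which 48.8% had a negative difference. Among these, 6.43% were at least 1.5-fold lower and 4.24% higher. Of 31 other genes known to respond to hypoxia, 28 had a negative difference, 9 were at least 1.5-fold lower and 0 higher, with a median of -0.41. The largest differences were those of Ppp1r3c, which targets a phosphatase to glycogen (-1.65 ± 0.17), Vldlr, a lipoprotein receptor (-1.47 ± 0.06), and Tmem45a, a membrane protein (-1.44 ± 0.33). Of 17 genes of glucose uptake, glycolysis and lactate export, all 17 had a negative difference, 6 were at least 1.5-fold lower and 0 higher, with a median of -0.56. The platelet form of phosphofructokinase, Pfkp, differed most, at 0.67 in MD43 and 2.18 in WT (-1.51 ± 0.06), followed by the lactate exporter Slc16a3 (-0.85 ± 0.03) and the aldolase Aldoc (-0.74 ± 0.19). Several glycolytic genes have near-identical copies elsewhere in the genome, and their values are uncertain for that reason.

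Other components of the HIF machinery were spread around 0. Of 14 cofactors, subunits of the VHL ligase and related regulators, 6 had a negative and 8 a positive difference, with a median of 0.02. At 1.5-fold 2 were lower and 1 higher, against 6.43% and 4.24% of all genes used. Siah2, a ubiquitin ligase that acts on the prolyl hydroxylases, was the lowest, at 0.72 in MD43 and 1.91 in WT (-1.19 ± 0.12). Npas3 was the other gene at least 1.5-fold lower (-0.62 ± 0.09). Cited4, a coactivator-binding protein, was the highest, at 2.24 and 1.36 (0.88 ± 0.17). The partner of VHL in its ligase, Elob, was at 6.84 and 6.79 (0.05 ± 0.03).

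**Figure D4:**
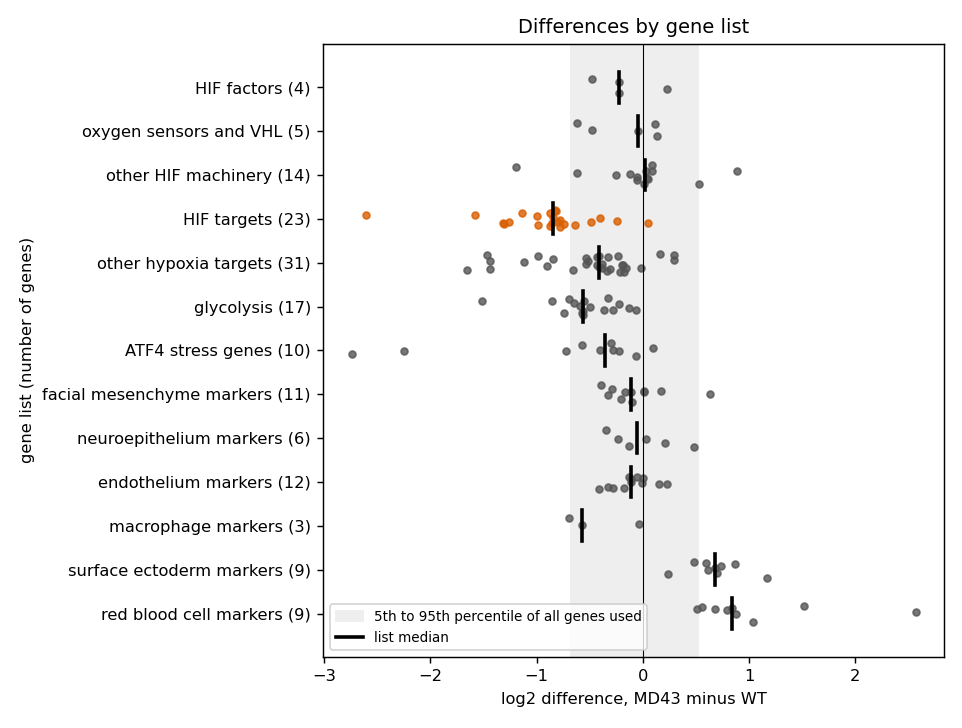
Each point is a gene used here, placed by its log2 difference, MD43 minus WT, with black bars for list medians and a grey band from the 5th to the 95th percentile of all 15377 genes. The medians were -0.84 for the HIF targets, -0.41 for other hypoxia targets, -0.56 for glycolysis, 0.02 for other HIF machinery and 0.84 for red blood cell markers.

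Other lists moved along with the targets. Among all 15377 genes used, 7507 had a negative and 7870 a positive difference. Ddit4 and Vegfa also respond to ATF4, a factor of amino acid stress, and of 10 genes of that response 9 had a negative difference, with a median of -0.35. Chac1 and Trib3 differed most, by -2.74 ± 0.30 and -2.25 ± 0.24, and WT had 66.0 reads of Chac1 and MD43 13.7, whereas Atf4 itself was at 6.53 and 6.59. In the other direction, all 9 red blood cell markers analysed (of 11 listed) were higher in MD43, with a median of 0.84 and summed RPKM of 6015 in MD43 and 3169 in WT, and 9 of 9 surface ectoderm markers were higher, with a median of 0.68 and sums of 189 and 120. None of the markers analysed in these 2 lists was at 0. Macrophage markers were scarce, as 3 of 5 reached 10 reads. Csf1r, the best covered, had 314 reads in MD43 and 231 in WT (-0.03 ± 0.09). The median of the 3, -0.57, is the value of Cx3cr1, with 31.4 and 33.5 reads (± 0.25). Ptprc reached 10 reads in WT alone. The median of 6 neuroepithelium markers was -0.05. The part of blood, ectoderm and ATF4 genes in the differences of the HIF targets was not tested.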

How the data were processed

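Poly(A) RNA of 4 FNPs, 2 per genotype, was sequenced from stranded libraries. The authors trimmed the reads with Trim Galore 0.4.4, mapped them with HISAT2 2.0.5 to GRCm38.p6, per the labels, and quantified them in SeqMonk. The deposited log2 RPKM values are 1 merged column per genotype, without sex chromosomes. The authors' own FDR, log2 fold change and mean columns were not used. Tests on single libraries had been planned in case the table held them. It does not, so no test was run.

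With Python 3.11.15 and pandas 2.3.3, 33101 of 33708 rows were matched to GENCODE M21 by symbol and position. Genes without reads, recognised by the most frequent difference (-0.4758), fixed the value of 0.9 reads. From it the reads of both libraries multiplied together were recovered, and the square root of this product is given as reads. Of the products under 1000, 99.9% were whole (within 0.01 or 0.01%), or 0.9 or 0.81 times whole, in each genotype. Many of these are genes without reads, which the step itself puts at 0.81. Of the products from 100 to 1000, 99.8% met the same condition in each genotype. The counting error uses these reads and covers counting alone. The step was also run on simulated data, in which libraries without reads were set to the same 0.9. That run therefore does not check the value of 0.9. The simulated counts held no differences between embryos. A symbol with several rows was represented by the deepest.

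A gene was counted as lower or higher at 1.5-fold, among 15377 genes that reached 10 reads in WT or MD43. All 32 members were named, and of other lists at most 3 genes for a large difference. Elob, Atf4, Csf1r and Flt1 were named regardless of the size of their difference. Members and lists were chosen with earlier results of these data known. Alternatives were pseudocounts, centring, a GC content and exon length correction, other read minimums, folds and groupings.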

Additional observations from a re-analysis of the deposited data

How the results depend on the processing

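With a pseudocount of 1 RPKM the median difference was -0.74 for the targets and -0.11 for the factors and sensors, and 15 genes were at least 1.5-fold lower. The 5 genes no longer past it were P4ha2 (-0.57), Ndrg1 (-0.35), Rora (-0.30), Car9 (-0.26) and Selenbp1 (-0.25), and Adm was at -1.29. Moving Egln1 and Egln3 to the targets gave -0.041 for the factors and sensors and a gap of -0.79. Without Bnip3l, Selenbp1 and Epas1 these were -0.13 and -0.72. At 2-fold 6 genes were lower. With at least 1000 reads, a limit chosen after the values were seen, 12 of 18 genes were at least 1.5-fold lower. By construction both settings can only reduce the count. Of the 45 values of counts and medians recomputed under alternatives, 37 held (counts within 1.5 times, medians and their gap within 1.96 times their counting error) and 0 reversed. Counts could not be scored as reversed, so the 0 covers the medians and their gap alone. Some of the 37 could not change. Keeping all members repeats the main set, and centring shifts both medians alike. Among 128 single-gene values, 11 moved beyond counting error, 9 of them under the pseudocount of 1 RPKM and 2 under the GC content and exon length correction. The 22 targets with a negative difference kept that count under the GC content and exon length correction. A pseudocount cannot change the sign of a difference, and the centring shifted each value by only 0.0057. The same count under these settings was therefore fixed in advance. No paired analysis was possible because each genotype has 1 merged value in the table analysed, and leaving out single libraries was not run for the same reason. Whether 1 embryo decides a difference was therefore not tested. Depth limits Car9, Selenbp1 and Adm.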
